A study of Mus musculus with 22 samples.

Results

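The genes examined here are those of the motile cilium and its axoneme, the microtubule shaft that bends when a cilium beats. They were found by a rule on symbols, set with earlier results of these data known: every row of the count tables whose symbol begins with Dnah, Dnaaf, Cfap, Tekt, Rsph, Drc, Spag or Ift followed by a digit, plus the 8 genes Foxj1, Dynlrb2, Ccdc39, Ccdc40, Ccdc113, Ccdc114, Ccdc153 and Tmem212. This gave 93 of the 21260 genes listed in the nuclear and whole-cell tables together, of which 92 of 20668 were in the nuclear table and 88 of 16304 in the whole-cell table. By role, 16 were Dnah (dynein heavy chains), 4 Dnaaf (factors that assemble dynein arms), 25 Cfap (cilia and flagella associated proteins), 5 Tekt (tektins), 8 Rsph (radial spoke proteins), 2 Drc (nexin-dynein regulatory complex), 10 Spag (sperm associated antigens), 15 Ift (intraflagellar transport) and 8 the genes given by name. The symbols also brought in the antisense genes Dnah2os and Ift88os, whose reads may be shared with their sense partners. Several members, among them Spag9, Spag5, Spag7, Cfap20, Cfap36 and the Ift genes, have uses outside motile cilia.

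A motile cilium is built on a ring of microtubule doublets around a central pair. Dynein arms on each doublet, made of heavy chains with intermediate and light chains, pull on the neighbouring doublet, and radial spokes, the nexin-dynein regulatory complex and the central apparatus set the rhythm of the beat. Foxj1, a forkhead transcription factor, and RFX factors are known to turn on the genes of this machine. In the hypothalamus it belongs above all to the ependymal cells that line the wall of the third ventricle and move cerebrospinal fluid. Tanycytes, the elongated ventricular cells beside them, mostly carry few or no motile cilia, and astrocytes and neurons carry a primary cilium that does not beat.

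All mice were male, leptin-deficient ob/ob animals aged 11 weeks, an obese and diabetic line, and 1 library came from 1 mouse. FGF1 mice received 3 ug of FGF1 into the lateral ventricle, and vehicle mice received saline and were fed only what FGF1 mice ate, so that mice of both arms lack leptin and were matched for intake. Nuclei were taken from 3 FGF1 and 3 vehicle mice at Day 1 and from 2 and 2 mice at Day 5, and a further cohort, 6 FGF1 and 6 vehicle mice at Day 5, gave whole cells. Day and the authors' batch cannot be told apart for the nuclei, and no untreated lean mice were among the groups. By the study's reporting summary, mice for nuclei came from Jackson Labs and those for whole cells from Janvier Labs. Whole cells also came from another dissection, chow and dissociation, so that levels are compared within a data set only.

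The nuclear table held 24965 barcodes, with 2721087 to 16345981 UMIs per mouse, and that of whole cells held 54890, with 2652897 to 11866269. At Day 1 the median UMI count per nucleus was 2029 to 2816 in FGF1 mice and 3178.5 to 3776 in vehicle mice, without overlap, and the ribosomal share of UMIs was 2.21% in FGF1 mouse 1 against 0.902% to 1.29% in the other mice of that day. Of the barcode sequences, 318 of 24645 in nuclei and 1791 of 53065 in whole cells occurred in more than 1 library. The nuclei carry the cell type names deposited with them, and the whole cells only cluster numbers. Nuclei named ependymal had 10 of 10 ependymal markers and also 10 of 11 astrocyte markers above their level in other nuclei, and those named tanycyte had 9 of 12 tanycyte, 11 of 11 astrocyte and 4 of 10 ependymal markers. In whole cells, cluster 6 had 11 of 11 ependymal markers and clusters 0, 7 and 10 had 4, 6 and 9 of 12 tanycyte markers. They are therefore called the ependymal-like and tanycyte-like clusters here, with few tanycyte markers behind cluster 0.

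To see where these genes are read, their UMIs were added up in each mouse and cell type and scaled to all UMIs there (CPM). In vehicle mice at Day 1 the sum was 22503 ± 4334 CPM in ependymal nuclei, 7075 ± 509 in tanycyte nuclei, 2729 ± 257 in astrocyte nuclei and 2429 ± 69.7 in oligodendrocyte nuclei (SD, n = 3). Nuclei of neurons that the authors could not map to a reference type held 2532 ± 95.6 CPM. The relation between the ependymal and tanycyte levels differed from gene to gene. Summed over the vehicle mice, Ccdc153, a marker gene of ependymal cells, reached in tanycyte nuclei 2.80% of its ependymal CPM, Tmem212 4.83%, Dnah12 12.1%, Spag16 41.6%, Dynlrb2 45.7% and Cfap126 87.0%. Since these are sums over the nuclei of a type, fewer nuclei with the RNA and less RNA per nucleus cannot be told apart in them.

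In tanycyte nuclei the axonemal genes were lower 1 day after FGF1. The summed level was 6943, 7638 and 6645 CPM in vehicle mice 1, 2 and 3 and 3281, 3099 and 2948 CPM in FGF1 mice 1, 2 and 3, so that the groups did not overlap. Each authors' batch held 1 FGF1 and 1 vehicle mouse, and the difference within the 3 batches was -1.37 to -1.02 on the log2 scale. The comparison rested on 187 FGF1 and 87 vehicle nuclei. Of the 92 members in the table, 26 passed the filter on low counts, and 17 of these fell and none rose (edgeR quasi-likelihood test, adjusted p below 0.05). The filter could pass a member through the vehicle mice alone. Of all 3534 genes tested there, 3.76% fell and 5.38% rose. The median log2 fold change of the tested members was -2.05, beside 0.03 over all genes tested. With the batch as a block 10 members fell, beside 1.25% of all genes, and leaving out vehicle mouse 1 left 7, beside 0.823%. Within all 3 batches the FGF1 mouse was the lower in 21 of the 26, beside 19.9% of all genes tested. All FGF1 mice were below all vehicle mice in 20 of the 26, beside 13.2% of all genes tested, and above them in 1, Spag6l, beside 14.6%.

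All 6 dynein heavy chains that passed the low-count filter in tanycyte nuclei fell, with a median log2 fold change of -2.88. The filter could pass a chain through the vehicle mice alone, so this is no result about the whole family. Of the untested chains, Dnah5 held 2 UMIs in FGF1 against 16 in vehicle nuclei, Dnah7c 12 against 29 and Dnah10 6 against 10. Dnah1 held 5 against 9 and Dnah17 1 against 4. Dnah2 held 21 against 20, Dnah3 3 against 3, Dnah8 3 against 1 and Dnah14 3 against 0. These are out of 628395 UMIs in FGF1 and 360348 in vehicle nuclei, so equal counts are a lower level per UMI in FGF1 nuclei. Dnah12, an inner arm heavy chain, stood at 255, 193 and 154 CPM in vehicle mice 1, 2 and 3 and at 10.0, 13.3 and 12.6 CPM in FGF1 mice 1, 2 and 3, a log2 fold change of -4.00 (SE 0.477, edgeR adjusted p = 0.000541). The highest FGF1 mouse, at 13.3 CPM, lay far below the lowest vehicle mouse, at 154 CPM. Dnah11, an outer arm heavy chain, was at 282, 264 and 182 CPM against 25.1, 53.2 and 12.6 CPM (log2 fold change -2.89, adjusted p = 0.00249). Dnah9, its outer arm relative, was at 202, 178 and 196 CPM against 30.1, 33.2 and 50.4 CPM (-2.36, adjusted p = 0.00293). In neither did the groups overlap. Dnah6 was at 108, 99.8 and 98.1 CPM against 7.53, 0 and 0 CPM, which is 3 UMIs in all FGF1 tanycyte nuclei against 37 in vehicle, a ratio of 0.0465 with a counting interval of 0.00917 to 0.147 (fitted log2 fold change -4.16, adjusted p = 0.00273). Dnah7a and Dnah7b, near-identical copies between which reads may be split, changed by -2.88 and -1.81.

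Among the other arm components, Dynlrb2, a light chain of the roadblock family, was at 108, 249.6 and 98.1 CPM in the vehicle mice and at 5.02, 0 and 0 CPM in the FGF1 mice. Its 2 UMIs in FGF1 tanycyte nuclei set against 58 in vehicle nuclei gave a ratio of 0.0198, with an exact counting interval of 0.00234 to 0.0747 that covers counting error only (fitted log2 fold change -5.25, SE 0.736, edgeR adjusted p = 0.00135). No UMI of it was counted in FGF1 mice 2 and 3.

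Of the 11 tested Cfap genes, 8 fell. Cfap43, an axonemal protein needed for normal beating, was at 262, 307 and 210.3 CPM against 25.1, 13.3 and 12.6 CPM (log2 fold change -3.60, SE 0.463, adjusted p = 0.00101). Cfap126 was at 141, 193 and 112 CPM against 12.5, 6.65 and 12.6 CPM (-3.60, SE 0.504, adjusted p = 0.00135). Both were below the vehicle range in all FGF1 mice. The other 6, Cfap61, Cfap52, Cfap54, Cfap44, Cfap74 and Cfap69, changed by -2.64, -2.57, -2.10, -1.99, -1.81 and -1.62. Cfap46 had a log2 fold change of 1.19, which did not pass the test (adjusted p = 0.28), and was high in FGF1 mouse 1.

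Spag16, a protein of the central apparatus, was at 504, 392 and 421 CPM in vehicle mice and 52.7, 73.1 and 88.2 CPM in FGF1 mice (log2 fold change -2.63, SE 0.374, edgeR adjusted p = 0.00144). Rsph10b, a radial spoke protein, was at 202, 235 and 154 CPM against 35.1, 39.9 and 0 CPM (-2.61, adjusted p = 0.00653). The groups were apart in both. Of the remaining Spag genes tested, Spag6l had a log2 fold change of 0.95 (adjusted p = 0.175) and Spag9, a kinase scaffold expressed in most cells, -0.75 (adjusted p = 0.22). None of the 4 tested Ift genes, whose proteins carry cargo along primary and motile cilia alike, was called, and their log2 fold changes ran from -1.24 to 0.29. Ift81 was the lowest of them, at 208, 107 and 210.3 CPM against 42.6, 106 and 75.6 CPM with FGF1 mouse 2 just below vehicle mouse 2 (adjusted p = 0.097). Ift74 changed by -1.05 (adjusted p = 0.13), with all FGF1 mice below all vehicle mice. The lack of a call does not show that these genes stayed level.

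**Figure D1:**
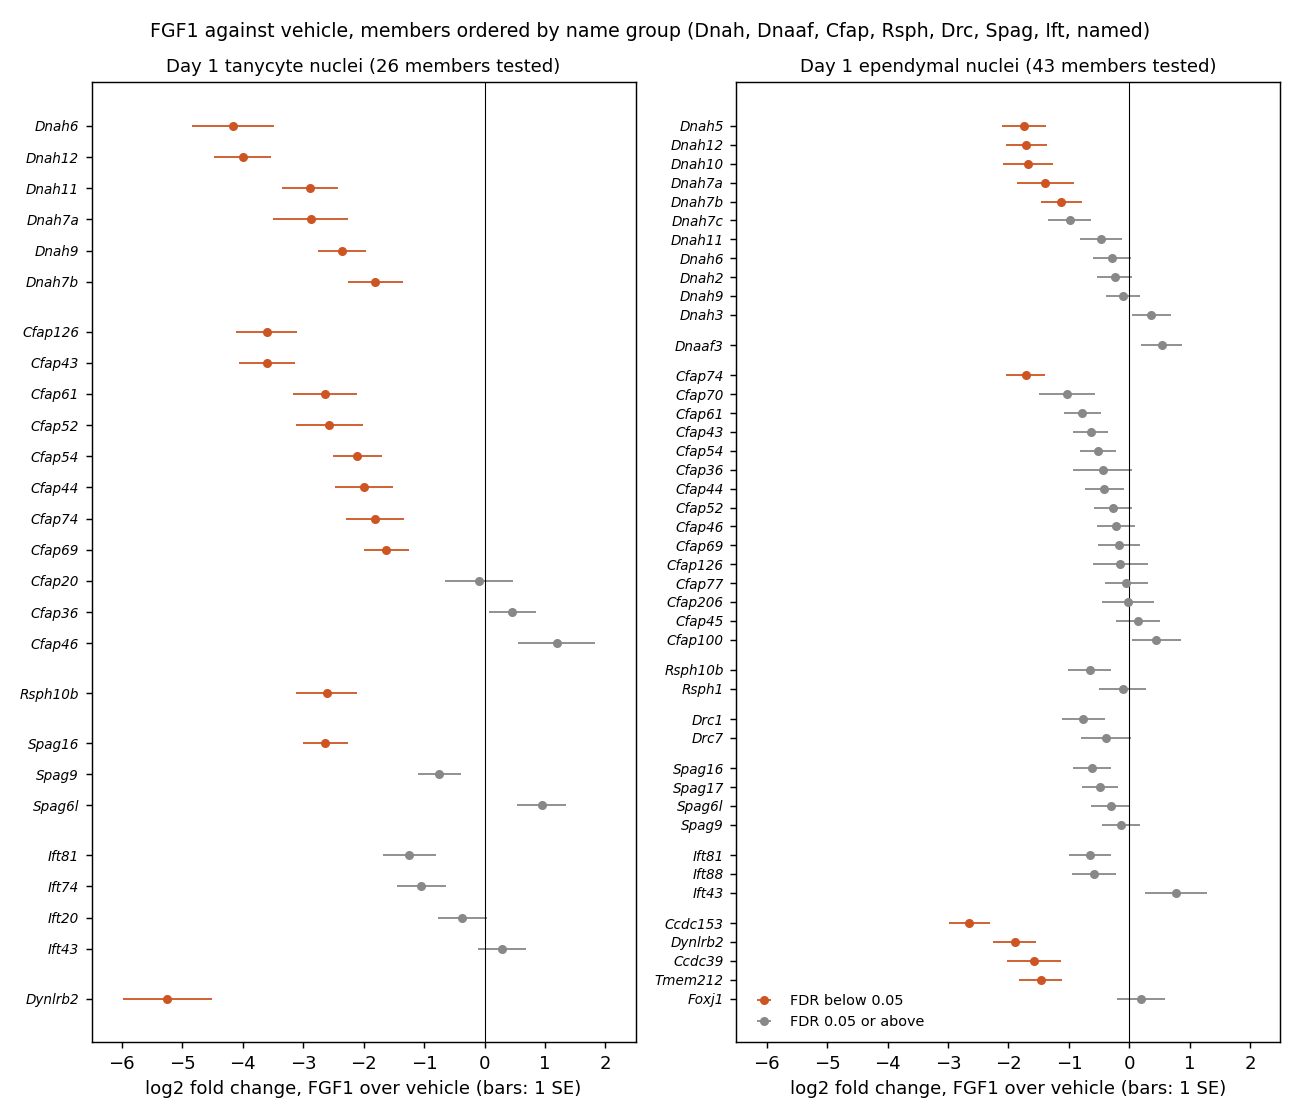
Log2 fold change (x axis, FGF1 over vehicle, with SE bars) of each tested member at Day 1, for tanycyte nuclei (left) and ependymal nuclei (right), with filled points for members past an adjusted p of 0.05. All 17 filled points of tanycyte nuclei and all 10 of ependymal nuclei lie below 0, and the points of tanycyte nuclei reach further, to -5.25.

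The other 66 members were too low to test in tanycyte nuclei, and among them were all Dnaaf, Tekt and Drc genes. Together they held 725 UMIs in FGF1 nuclei, or 1154 CPM, and 887 in vehicle nuclei, or 2462 CPM. Foxj1, the transcription factor, had 1 UMI in FGF1 and 9 in vehicle nuclei. Ccdc153 had 1 against 7, Tmem212 3 against 16 and Ccdc113 3 against 16. The dynein ruler genes Ccdc39 and Ccdc40 had 13 against 34 and 6 against 13. Ccdc114 had 18 against 12, which is 28.6 CPM in FGF1 against 33.3 CPM in vehicle nuclei. Others held more UMIs in FGF1 nuclei, among them Ift27 with 75 against 13, Spag5 with 47 against 12, Spag7 with 45 against 7 and Ift122 with 33 against 15. Much of this lay in FGF1 mouse 1, which gave 66, 33, 32 and 17 of these UMIs in that order. These are out of 628395 UMIs in FGF1 and 360348 in vehicle tanycyte nuclei, with no test, and the last 4 genes were picked after their values were seen.

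To ask whether the lower level was spread over nuclei, each nucleus was thinned at random to 1500 UMIs and scored for UMIs of the 42 members outside the Cfap, Spag and Ift families. In vehicle mice 55.0% to 74.3% of tanycyte nuclei had at least 3 such UMIs at Day 1, and in FGF1 mice 0% to 2.33%. Before thinning, at median depths of 3383.5 to 3799 and 2298 to 2846 UMIs, the shares were 84.4% to 88.6% and 25.2% to 32.6%, and 11 FGF1 nuclei were too shallow to thin. The thinned share in FGF1 tanycyte nuclei was below that in oligodendrocyte nuclei, a type without motile cilia, so no expression is read from that share alone. The summed level of all members, a wider set that includes the Cfap, Spag and Ift families, was 2948 to 3281 CPM in FGF1 tanycyte nuclei. In FGF1 oligodendrocyte nuclei it was 2239 ± 166 CPM (SD, n = 3). Spag6l, which did not fall, alone held 405 of the 628395 UMIs of FGF1 tanycyte nuclei. The thinned share in oligodendrocyte nuclei was 3.97% to 5.83% in FGF1 and 6.58% to 9.26% in vehicle mice, at median depths of 2420.5 to 4258 and 3398 to 4494.5 UMIs. In ependymal nuclei it was 100% in each vehicle mouse and 95.7% to 100% in FGF1 mice. In astrocyte nuclei it was 6.76% to 22.2% in vehicle and 0.552% to 4.26% in FGF1 mice, also without overlap.

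**Figure D2:**
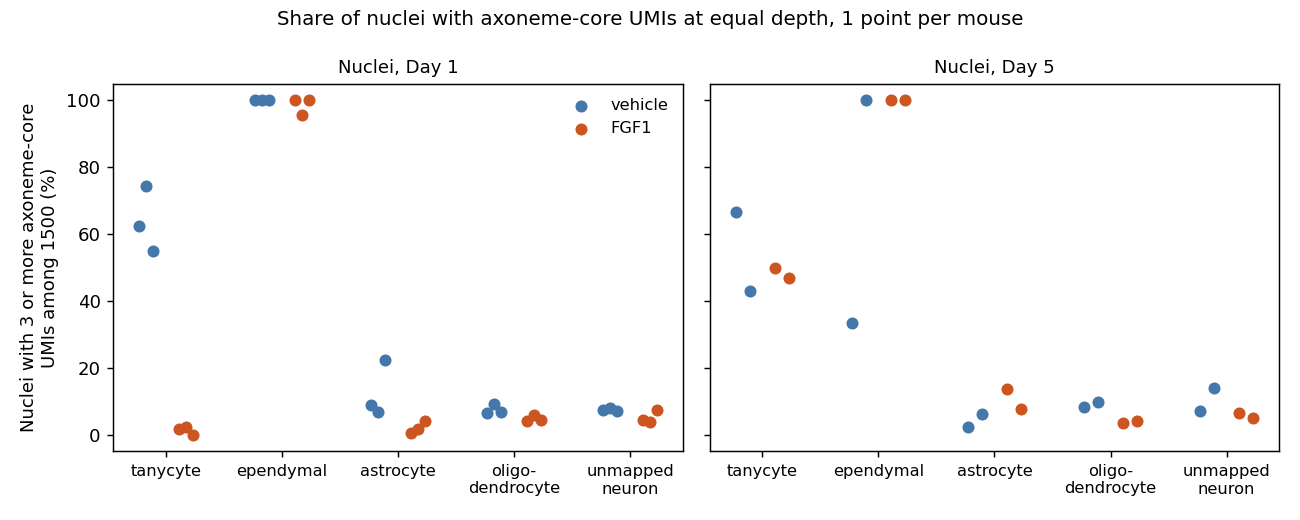
Share of nuclei (y axis, percent) with at least 3 UMIs of the 42 axonemal members after thinning to 1500 UMIs, 1 point per mouse, by cell type, day and treatment. At Day 1 the 3 FGF1 tanycyte points lie at 0% to 2.33% and the 3 vehicle points at 55.0% to 74.3%, while at Day 5 both arms lie between 42.9% and 66.7%.

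Some marker sums were lower beside these genes in Day 1 tanycyte nuclei. The astrocyte markers are not foreign to these nuclei, which held them above other nuclei, as given above. Of the ependymal markers, Enkur and Tppp3 are also in the list of other motile cilium genes below. The 6 ependymal markers that are not members summed to 252 to 346 CPM in FGF1 and 449 to 628 CPM in vehicle mice, with Enkur and Pltp lower in all FGF1 mice and Cd24a and Tppp3 not. Astrocyte markers summed to 1966 to 2740 CPM against 4612 to 6203 CPM, and oligodendrocyte markers to 278 to 339 against 603 to 733 CPM. Tanycyte markers ranged over 1775 to 3982 against 3224 to 4073 CPM and neuronal markers over 5027 to 7510 against 5444 to 7024 CPM, both with overlap. Their part in the member result was not tested. Tanycytes made up 1.70% to 2.39% of nuclei in FGF1 and 1.55% to 2.58% in vehicle mice.

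Ependymal nuclei also held less RNA of several of these genes at Day 1. The summed level was 14953 ± 888 CPM in FGF1 and 22503 ± 4334 CPM in vehicle mice (SD, n = 3 each), at 14241 to 15948 against 17832 to 26393 CPM without overlap, and the difference within batches was -0.73 to -0.28 on the log2 scale. With 59 FGF1 and 47 vehicle nuclei, 43 of 92 members were tested, of which 10 fell and none rose, beside 8.86% of all 1456 genes tested that fell and 10.2% that rose. The median log2 fold change was -0.47 in the members and -0.05 over all genes. The filter could pass a member through the vehicle mice alone, so the lack of a rise is no result about the untested members. Leaving out FGF1 mouse 1 gave 6 lower of 47 tested, beside 5.24% of all genes that fell. Leaving out vehicle mouse 2 gave 6 of 44, beside 5.44%. In 15 of the 43 all FGF1 mice were below all vehicle mice, beside 18.1% of all genes tested, and in none above.

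Of the 10, 4 were genes given by name, 5 were dynein heavy chains and 1 was a Cfap gene. Ccdc153, widely used to mark ependymal cells, was at 673, 808 and 616 CPM in vehicle mice 1, 2 and 3 and at 122, 73.5 and 144 CPM in FGF1 mice 1, 2 and 3, a log2 fold change of -2.65 (SE 0.343, edgeR adjusted p = 5.15e-05). Dynlrb2 was at 352, 379 and 329 CPM against 91.9, 98.0 and 89.7 CPM (-1.90, SE 0.348, adjusted p = 0.00097). Both groups were tight and apart. Tmem212, a membrane protein gene of ciliated cells, was at 1009, 1155 and 630.2 CPM against 184, 331 and 502 CPM (-1.47, adjusted p = 0.00658), and Ccdc39, part of the ruler that spaces dynein arms along the doublet, at 199, 346 and 186 CPM against 91.9, 49.0 and 108 CPM (-1.58, adjusted p = 0.0174). Neither overlapped. Foxj1 was tested here and not called: it was at 107, 148 and 301 CPM in vehicle and 199, 233 and 215 CPM in FGF1 mice, with the FGF1 mice inside the vehicle range (log2 fold change 0.19, SE 0.402, adjusted p = 0.784).

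Of the 11 tested dynein heavy chains 5 fell in ependymal nuclei. Dnah12 was at 2156, 1815 and 1303 CPM in vehicle and 398, 478 and 753 CPM in FGF1 mice (log2 fold change -1.71, SE 0.339, adjusted p = 0.00188). Dnah5, an outer arm heavy chain, was at 367, 462 and 315 CPM against 61.2, 147 and 126 CPM (-1.74, adjusted p = 0.00286), and Dnah10, an inner arm heavy chain, at 290.5, 676 and 243 CPM against 153, 110.2 and 108 CPM (-1.68, adjusted p = 0.0079). All 3 were lower in every FGF1 mouse than in any vehicle mouse. Dnah7b (-1.12, adjusted p = 0.0243) and Dnah7a (-1.39, adjusted p = 0.0487) passed more narrowly, and Dnah7a was not called once any 1 mouse was left out. The heavy chains Dnah9, Dnah6 and Dnah11, all called in tanycyte nuclei, had log2 fold changes of -0.11, -0.29 and -0.47 here and were not called.

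Of the 15 tested Cfap genes 1 fell, Cfap74, a protein of the central apparatus, at 596, 577 and 529.9 CPM in vehicle and 229.7, 159 and 126 CPM in FGF1 mice (-1.72, edgeR adjusted p = 0.0012), with no overlap. Cfap54, another central apparatus gene, was at 1039.7, 1105 and 730.5 CPM against 551, 710.2 and 753 CPM and was not called (-0.52, adjusted p = 0.249). The tested members of the other roles, 2 Rsph, 2 Drc, 4 Spag, 3 Ift and 1 Dnaaf, were not called. Spag16 was at 1361, 1188 and 687 CPM against 628, 612 and 879 CPM (-0.62, adjusted p = 0.201), Rsph10b had a log2 fold change of -0.66, Drc1 of -0.76, Ift81 of -0.66, and Dnaaf3, a dynein arm assembly factor, of 0.53. The 49 members too low to test held 2383 CPM in FGF1 and 3191 CPM in vehicle nuclei. Single ones went either way. Ift122 held 20 UMIs in FGF1 against 8 in vehicle nuclei and Spag5 13 against 4, but Ift46 10 against 30 and Cfap161 10 against 29. These are out of 202718 UMIs in FGF1 and 195847 in vehicle ependymal nuclei, with no test, and were picked after their values were seen.

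Markers again moved with the groups. In Day 1 ependymal nuclei the ependymal markers that are not members summed to 1424 to 1920 CPM in FGF1 and 2521 to 3629 CPM in vehicle mice, astrocyte markers to 718 to 1745 against 3151 to 3761 CPM, and neuronal markers to 2781 to 5902 against 2339 to 2707 CPM, each without overlap. Their part in the member result was not tested.

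The FGF1 effect was lower in tanycyte than in ependymal nuclei for 9 members. The difference, ependymal minus tanycyte, was tested as an interaction at Day 1, with a term for each mouse since both types came from the same 6 mice, and with 46 members among 2484 genes, and was above 0 for 9 members and below 0 for none, beside 1.01% of all genes above and 0.362% below. The difference in log2 fold change was 3.04 for Cfap43 (adjusted p = 0.0068), 3.90 for Dnah6, 3.99 for Cfap206, 3.31 for Cfap126, 3.19 for Cfap100, 2.40 for Dnah11, 2.19 for Dnah9 and 2.00 for Spag16, and the ninth was Cfap52. Its median was 1.44 over the members and 0.04 over all genes. The filter could pass a member through the ependymal nuclei alone. Cfap206 and Cfap100 were too low to test within tanycyte nuclei, with 3 and 5 UMIs in FGF1 against 40 and 18 in vehicle tanycyte nuclei. In ependymal nuclei Cfap100 held 106 UMIs in FGF1 against 73 in vehicle. With no filter on low counts 5 of 90 members differed, all above 0, beside 0.108% of 17615 genes. Cfap43 shows the contrast: its ependymal levels, 596, 775 and 501 CPM in vehicle and 475, 379.6 and 341 CPM in FGF1 mice, were apart by much less than its tanycyte levels above.

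The genes that fell in both types at Day 1 were 5, namely Cfap74, Dnah12, Dnah7a, Dnah7b and Dynlrb2, which is 29.4% of the 17 in tanycyte and 50.0% of the 10 in ependymal nuclei, with 23 members tested in both. Of all 1289 genes tested in both types 2.87% fell in both. With each of the 6 mice left out in turn, Dnah12 and Dynlrb2 were called in both types every time, whereas Cfap74 was called in 1 of the 6 fits of tanycyte nuclei, Dnah7a in 4 of tanycyte and 0 of ependymal nuclei, and Dnah7b in 2 of each. DESeq2 did not call Cfap74 in tanycyte nuclei (adjusted p = 0.142). RFX factors are known to bind paired half-sites called X-boxes before cilium genes, so the bases just upstream of the start of transcription are shown for these genes and for Ccdc153, the member with the lowest adjusted p in ependymal nuclei. The stretches are from RefSeq (GRCm38.p6), 5′ to 3′ on the gene's strand, up to 250 bases that end at the start, shorter for Dynlrb2 and left out for Dnah7b where another annotation (GENCODE) begins the gene earlier. Capitals mark a match to GTTNCC on either strand, or to the X-box as GTTNCC, 0 to 3 bases and NGNAAC, of which GTTNCC is a part. Dynlrb2 lies at chr8:116504765-116504993 (plus strand), Cfap74 at chr4:155408940-155409189 (plus strand), Dnah7a at chr1:53706785-53707034 (minus strand), Ccdc153 at chr9:44240427-44240676 (plus strand) and Dnah12 at chr14:26691304-26691553 (plus strand).
Dynlrb2: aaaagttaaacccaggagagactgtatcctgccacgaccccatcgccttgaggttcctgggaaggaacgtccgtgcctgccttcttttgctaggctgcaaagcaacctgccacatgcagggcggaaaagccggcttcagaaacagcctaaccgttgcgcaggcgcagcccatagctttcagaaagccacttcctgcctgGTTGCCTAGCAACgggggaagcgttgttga
Cfap74: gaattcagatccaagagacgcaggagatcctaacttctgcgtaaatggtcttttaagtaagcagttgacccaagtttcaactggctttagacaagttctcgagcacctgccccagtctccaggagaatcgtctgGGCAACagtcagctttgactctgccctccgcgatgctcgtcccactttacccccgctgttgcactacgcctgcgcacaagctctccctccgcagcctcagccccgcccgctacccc
Dnah7a: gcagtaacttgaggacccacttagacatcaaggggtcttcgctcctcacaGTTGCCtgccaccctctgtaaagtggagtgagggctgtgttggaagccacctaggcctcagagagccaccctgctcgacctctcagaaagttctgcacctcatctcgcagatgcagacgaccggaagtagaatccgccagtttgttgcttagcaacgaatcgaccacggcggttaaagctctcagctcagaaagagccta
Ccdc153: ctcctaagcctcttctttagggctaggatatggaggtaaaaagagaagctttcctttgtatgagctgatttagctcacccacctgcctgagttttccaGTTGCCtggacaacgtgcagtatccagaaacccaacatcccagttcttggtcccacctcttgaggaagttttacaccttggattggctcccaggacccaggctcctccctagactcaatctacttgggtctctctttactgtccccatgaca
Dnah12: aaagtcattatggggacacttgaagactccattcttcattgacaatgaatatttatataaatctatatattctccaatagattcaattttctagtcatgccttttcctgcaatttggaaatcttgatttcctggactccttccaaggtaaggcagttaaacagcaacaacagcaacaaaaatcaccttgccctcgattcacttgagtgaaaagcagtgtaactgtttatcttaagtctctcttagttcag
The Dynlrb2 stretch holds a full X-box whose first base is 51 before the start in RefSeq. Cfap74, Dnah7a and Ccdc153 hold GTTNCC alone, 116, 200 and 152 bases before the start, the Cfap74 match being on the other strand. Dnah12 holds no match. In each stretch a missing match to GTTNCC or the X-box says only that these letters are not in the window. Other spellings of the X-box were not searched for. Of the 93 members 76 were matched to a RefSeq promoter, and of these 50 (65.8%) held GTTNCC in the 250 bases upstream, beside 39.5% of all 27025 promoters. The X-box was in 9 (11.8%), beside 1.61%, and the forkhead motif TGTTTAC in 4 (5.26%), beside 3.09%, on either strand. A match is a string of letters and not a site shown to be bound.

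Astrocyte nuclei gave no call at Day 1. Their 553 FGF1 and 250 vehicle nuclei left 20 members to test, none of which fell or rose (edgeR; 2 lower and 1 higher at an unadjusted p under 0.05, and 0 by DESeq2), beside 0.165% of 6063 genes that fell and 1.39% that rose, with a median of -0.25 in the members. The 3 with the smallest p were Dnah7b (-1.72, adjusted p = 0.347), Ift43 (0.99) and Spag16 (-1.55). Summed levels were 2178 ± 265 CPM in FGF1 and 2729 ± 257 CPM in vehicle mice (SD, n = 3 each), and the 72 untested members held 470 and 861 CPM. The 15 other cell types and neuron groups of Day 1 gave 237 tests of members and no call by edgeR, beside 0.0196% of their tests over all genes lower and 0.0816% higher. At an unadjusted edgeR p under 0.05, 24 were lower and 6 higher, and DESeq2 called 1. Here and below no share over all genes was taken for unadjusted or DESeq2 counts, so they are no result about the members. Oligodendrocyte nuclei, with 30 members tested, held 2239 ± 166 CPM in FGF1 and 2429 ± 69.7 CPM in vehicle mice.

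At Day 5 the FGF1 and vehicle mice overlapped in the level of these genes in tanycyte nuclei. The summed level was 5501 and 6730 CPM in vehicle mice 28 and 38 and 8035 and 5832 CPM in FGF1 mice 37 and 45. The vehicle arm held only 23 tanycyte nuclei, 9 of them from mouse 28, against 141 in FGF1, and the limit of 10 nuclei per mouse was lowered to 3 to fit these comparisons at all. None of 27 tested members was called (edgeR; 0 lower and 1 higher at an unadjusted p under 0.05, 0 by DESeq2), beside 0% of all 2437 genes tested. Their median log2 fold change was 0.19. Dnah12 was at 60.8 and 180.3 CPM in vehicle and 349.7 and 165 CPM in FGF1 mice (log2 fold change 0.79), and Dynlrb2 at 30.4 and 90.1 CPM against 171 and 135 CPM (1.08). The groups overlapped for Dnah12. They were apart for Dynlrb2, which had 7 UMIs in vehicle nuclei (edgeR adjusted p = 0.649). All FGF1 mice were above all vehicle mice in 6 of the 27 members, beside 20.6% of all genes tested. They were below in 2, beside 19.0%.

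In Day 5 ependymal nuclei the summed level over all members was 8217 and 16645 CPM in vehicle mice 28 and 38 and 31959 and 24989 CPM in FGF1 mice 37 and 45. Only 3 and 8 vehicle nuclei stood against 67 in FGF1, and none of the 51 members was called (edgeR; 14 higher and 0 lower at an unadjusted p under 0.05, 0 by DESeq2), beside 0% of all 2128 genes tested. The filter could pass a member through the deeper FGF1 libraries alone, so the direction of the tested members, with a median log2 fold change of 0.98 beside 0.08 over all genes, is a description and supports nothing. The 41 untested members held 642 UMIs or 2291 CPM in FGF1 and 81 UMIs or 1542 CPM in vehicle nuclei, and some were the higher in vehicle per UMI, such as Ift140 with 18 UMIs of 280177 in FGF1 against 10 of 52521 in vehicle nuclei, and Ift80 with 21 against 10. Dnah12 was at 263 and 965 CPM in vehicle mice 28 and 38 and 2729 and 2153 CPM in FGF1 mice 37 and 45 (1.86), Dnah3 had a log2 fold change of 2.99 (adjusted p = 0.237) and Dnah6 of 2.22. Without vehicle mouse 38, so that the 3 nuclei of mouse 28 stood alone for the vehicle arm, 11 of 67 tested members were called higher, beside 1.11% of 3974 genes. Ependymal markers that are not members summed to 855 and 1394 CPM in vehicle and 2223 to 4077 CPM in FGF1 mice, and astrocyte markers to 5495 and 7625 against 2444 to 4777 CPM, whose part was not tested.

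In Day 5 astrocyte nuclei, with 494 FGF1 and 241 vehicle nuclei, none of 44 members was called (edgeR; 2 lower and 2 higher at an unadjusted p under 0.05, 0 by DESeq2), beside 0.589% of 8484 genes that fell and 0.0354% that rose. Cfap46 had the smallest p (-1.65, adjusted p = 0.092), followed by Cfap74 (1.20) and Spag6l (-1.08). The 10 other types of that day gave 296 tests of members and no call by edgeR, beside 0.160% of tests lower and 0.0825% higher over all genes. At an unadjusted edgeR p under 0.05, 28 were lower and 2 higher, with no share over all genes at that threshold, and DESeq2 called 0.

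The difference between days was tested directly as an interaction of day and treatment. In tanycyte nuclei 51 members entered among 5067 genes, and for 8 the FGF1 effect was higher at Day 5 than at Day 1, for none lower, beside 0.789% and 0.0395% of all genes. The differences in log2 fold change were 6.45 for Dynlrb2 (SE 0.989, adjusted p = 0.00304), 4.97 for Dnah12 (SE 0.775, adjusted p = 0.00304), 5.04 for Cfap206, 4.33 for Cfap126, 3.67 for Dnah11, 3.37 for Cfap43, 2.96 for Dnah9 and 2.49 for Spag16. The median over the members was 2.20, beside 0.12 over all genes, and with no filter on low counts 14 of 91 members differed, all above 0, beside 0.635% of 17808 genes.

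In ependymal nuclei 49 members entered among 2394 genes, and 9 had a higher FGF1 effect at Day 5, none a lower one, beside 3.30% and 1.71% of all genes. Dnah12 differed by 3.47 (SE 0.672, adjusted p = 0.00466), Ccdc153 by 3.45, Dnah7a by 3.29, Tmem212 by 3.19, Dynlrb2 by 3.04, Ccdc39 by 2.96, Dnah6 by 2.42 and Cfap74 by 2.39, and the ninth was Cfap61. With no filter 26 of 89 members differed, all above 0, beside 1.56% of 16653 genes. In both types the day differences rest on 2 vehicle mice with few nuclei at Day 5. For ependymal nuclei these were 3 and 8, and the named genes held from 4 UMIs (Dnah7a) to 40 UMIs (Dnah12) in them. For tanycyte nuclei they were 9 and 14, and the genes named there held from 5 UMIs (Cfap206) to 45 UMIs (Spag16). Cfap206 was too low to test in tanycyte nuclei on either day alone. The filter could pass a member through the deeper FGF1 libraries of Day 5 alone, as said above for that day. The day differences of both types are therefore a description and support nothing by themselves. In astrocyte nuclei none of 41 members differed between the days (edgeR; 8 at an unadjusted p under 0.05, and 0 of all 8872 genes adjusted), with Ccdc39 at 3.31 (adjusted p = 0.351), Dynlrb2 at 3.52 and Dnah7b at 2.75.

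The whole cells of Day 5 gave that day 6 mice an arm. In the ependymal-like cluster 6 the summed level was 15680 ± 1019 CPM in FGF1 and 14914 ± 1463 CPM in vehicle mice (SD, n = 6 each). None of 76 tested members was called (edgeR; 2 lower and 9 higher at an unadjusted p under 0.05, 1 higher by DESeq2), beside 0.743% of 6734 genes that fell and 0.535% that rose. Their log2 fold changes ran from -0.46 to 0.54, with a median of 0.08. Within the 6 batches the summed level differed by -0.19 to 0.31 on the log2 scale.

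Named members of cluster 6 overlapped between the arms. Ccdc153 ran from 1214 CPM over a median of 1389 to 1847 CPM in vehicle mice, and from 919 over 1308 to 1433 CPM in FGF1 mice. Dynlrb2 ran from 634 over 884 to 1115 CPM and from 999 over 1102 to 1607 CPM. Foxj1 ran from 603 over 651 to 923 CPM and from 623 over 672 to 699.7 CPM. In each of the 3 the ranges overlapped. Tmem212 ran from 781 over 1083 to 1814 CPM in vehicle and from 1176 over 1382 to 1736 CPM in FGF1 mice, again with overlap. Cfap126 came closest to a call, with a log2 fold change of 0.54 (adjusted p = 0.0685). FGF1 mouse 6 gave only 19 cells to this cluster, 0.796% of its cells, where the other mice gave 4.16% to 10.2%.

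The tanycyte-like clusters gave no call either. In cluster 0 none of 69 members passed (edgeR; 0 lower and 10 higher at an unadjusted p under 0.05, 0 by DESeq2), beside 2.64% of 9441 genes in each direction, and Cfap52 had the smallest p (0.63, adjusted p = 0.0558), followed by Cfap54 (0.48) and Ccdc39 (0.37). Cluster 7 had none of 38, beside 0.968% of 4027 genes in each direction, with FGF1 mouse 6 left out for having 7 cells. Cluster 10 had none of 12, beside 1.16% of 2159 genes that fell and 0.973% that rose, with Dynlrb2 at -0.55 (adjusted p = 0.234). Unadjusted, 0 lower and 2 higher in cluster 7 and 2 lower and 0 higher in cluster 10 had a p under 0.05, and DESeq2 called 0 in both. The summed levels, 4352 ± 889, 4186 ± 493 and 2659 ± 477 CPM in FGF1 against 4186 ± 471, 4020 ± 372 and 3056 ± 398 CPM in vehicle mice for clusters 0, 7 and 10 in that order, overlapped. In clusters 0, 7, 10 and 6 no member had groups that did not overlap, beside 1.12%, 1.39%, 0.834% and 0.772% of all genes with all FGF1 mice below and 1.44%, 1.44%, 1.25% and 0.297% with all above. After thinning to 750 UMIs the share of cells with at least 3 axonemal UMIs was 9.59% to 18.0% in vehicle and 5.39% to 21.5% in FGF1 mice in cluster 0, and 85.4% to 92.5% and 88.7% to 94.7% in cluster 6.

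The astrocyte-like clusters 1 and 4, each with 11 of 11 astrocyte markers, had none of 27 and none of 24 members called (edgeR; 0 lower and 3 and 2 higher at an unadjusted p under 0.05, 0 by DESeq2), beside 0.182% and 0.168% of 7679 and 5967 genes that fell and 0.221% and 0.218% that rose. Cluster 1 held 7940 vehicle and 1531 FGF1 cells and cluster 4 held 697 and 3412, so that the arms lay mostly in different clusters. With both clusters summed, 8 of 41 members rose and 1 fell, beside 6.55% and 6.06% of all genes. Those that rose were Cfap54 (1.41), Cfap126 (1.03), Cfap44 (0.88), Foxj1 (0.81), Ccdc39 (0.68), Dnah7b (0.68), Dynlrb2 (0.46) and Ift22 (0.41), and Ift27 fell (-0.46).

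Among the single clusters of whole cells, members were called in clusters of other classes, which had 66 tests of members in all. In cluster 2, which had 9 of 9 oligodendrocyte markers, Dynlrb2 and Cfap126 rose. Dynlrb2 ran from 7.77 over a median of 22.0 to 28.2 CPM in vehicle mice and from 51.8 over 71.2 to 104 CPM in FGF1 mice, without overlap (log2 fold change 1.64, SE 0.211, edgeR adjusted p = 8.74e-05). Cfap126 ran from 6.91 over 15.0 to 28.2 CPM and from 19.4 over 46.6 to 63.0 CPM, with overlap (1.20, SE 0.245, adjusted p = 0.0106). These were 2 of 25 tested members, beside 0.557% of 7187 genes that rose and 0.348% that fell. DESeq2 called 4 members higher in this cluster, with no DESeq2 share over all genes taken. The arms lay in different clusters of oligodendrocyte markers, with 1799 FGF1 and 5610 vehicle cells in cluster 2, 1212 and 166 in cluster 11 and 211 and 952 in cluster 12. With these 3 clusters summed, Dynlrb2 was at 1.00 (adjusted p = 0.0105) and Cfap126 at 0.52 without a call (adjusted p = 0.267), 1 of 27 members beside 1.06% of 8433 genes that rose. In cluster 3, which had 7 of 7 endothelial markers, Cfap126 rose as well (1.29, SE 0.277, adjusted p = 0.016), from 13.5 over 16.1 to 24.0 CPM in vehicle and from 13.2 over 32.3 to 65.5 CPM in FGF1 mice, 1 of 15 tested beside 0.363% of 6329 genes that rose and 0.585% that fell. DESeq2 did not call it in cluster 3. In the microglia-like cluster 8, where Cfap126 was too low to test, it ran from 0 over 20.4 to 36.7 CPM in vehicle and from 20.9 over 40.6 to 65.5 CPM in FGF1 mice. In the astrocyte-like cluster 1 its log2 fold change was 0.88 (edgeR adjusted p = 0.229), but in the astrocyte-like cluster 4 it was 0.04 (adjusted p = 0.998). In the tanycyte-like cluster 10 it was -0.24 (edgeR adjusted p = 0.757). Cfap126 was thus read at low levels in several types without motile cilia, and the part of free RNA in these values was not tested. The summed level was above that of the vehicle mouse in all 6 batches in both clusters, by 0.19 to 1.12 in cluster 2 and by 0.12 to 0.78 in cluster 3 on the log2 scale. The ependymal markers that are not members were at 716 to 1262 CPM in FGF1 and 612 to 972 CPM in vehicle mice in cluster 2, and at 1184 to 1744 and 1048 to 1367 CPM in cluster 3. Their part was not tested.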

How the data were processed

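Male ob/ob mice were profiled by droplet RNA-seq of hypothalamic nuclei (Day 1 and Day 5) and of whole hypothalamic cells (Day 5). The deposited counts are raw UMI counts per gene and barcode that the authors made with Cell Ranger 1.2 on GRCm38 (mm10), with introns counted for nuclei, as the study's methods and the submitters' processing notes give it. The authors removed doublets from whole cells with Scrublet but not from nuclei, took neurons out of the whole cells, and named nuclei after integration across samples. The deposited percent of mitochondrial and ribosomal UMIs per barcode in whole cells was used only for an alternative. The authors' normalized tables were not used. Depths ranged over 2721087 to 16345981 UMIs per mouse in nuclei and 2652897 to 11866269 in whole cells, and small types limit precision. Counting intervals (95%) cover counting error only.

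UMIs were summed per mouse and cell type (at least 10 barcodes per mouse, 3 for Day 5 tanycyte and ependymal nuclei) and tested across all genes with edgeR 4.0.16 (filterByExpr, TMM, robust quasi-likelihood test, Benjamini-Hochberg adjusted p below 0.05) in R 4.3.3, with interactions fitted in 1 model (between cell types with a term for each mouse). Levels are CPM of all UMIs. A share over all genes beside a count of calls is of edgeR calls at an adjusted p below 0.05, and none was taken for unadjusted or DESeq2 counts. Alternatives were DESeq2 1.42.0, RLE factors, no filter (at least 1 UMI), each mouse left out, barcodes within 5% (nuclei) or 20% (cells) mitochondrial or ribosomal UMIs, replicate and batch blocks, and summed clusters. The low-nuclei limit of 3 and the batch block for nuclei were added after the data were seen. Scripts were tested on simulated data. Thinning kept 1500 UMIs per nucleus and 750 per cell and used 42 and 40 members.

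The members and all lists were chosen with earlier results of these data known. Named in the text were the 8 genes of the rule, up to 8 called members per direction with the largest change in tanycyte, ependymal and astrocyte comparisons (the 3 smallest p where fewer than 3 were called), called members elsewhere, the member of each role highest in vehicle ependymal nuclei, up to 8 members per interaction, and up to 3 called genes per other list. Each mouse gave 1 library, and tests within a cell type used 1 sum per mouse, so their p-values measure the spread between mice. In the test between cell types each mouse gave a sum for either type and had its own term. Its p-values measure the spread within mice. Day 5 mice carried animal numbers and Day 1 mice replicate numbers, and both are used as labels.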

Additional observations from a re-analysis of the deposited data

Results flagged for a closer look

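The FGF1 effect on several members differed between days or between cell types by an interaction test over all genes (edgeR, adjusted p below 0.05). Up to 8 members of each test are given, as differences in log2 fold change. Day 5 minus Day 1 in tanycyte nuclei was 6.45 for Dynlrb2, 5.04 for Cfap206, 4.97 for Dnah12, 4.33 for Cfap126, 3.67 for Dnah11, 3.37 for Cfap43, 2.96 for Dnah9 and 2.49 for Spag16. In ependymal nuclei it was 3.47 for Dnah12, 3.45 for Ccdc153, 3.29 for Dnah7a, 3.19 for Tmem212, 3.04 for Dynlrb2, 2.96 for Ccdc39, 2.42 for Dnah6 and 2.39 for Cfap74. Ependymal minus tanycyte at Day 1 was 3.99 for Cfap206, 3.90 for Dnah6, 3.31 for Cfap126, 3.19 for Cfap100, 3.04 for Cfap43, 2.40 for Dnah11, 2.19 for Dnah9 and 2.00 for Spag16. The day differences share the day with the batch, which cannot be told apart. In both types they rest on few vehicle nuclei at Day 5 and are a description only.

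In whole cells 3 groups of 6 mice held 1 mouse far from the rest. The highest FGF1 mouse of cluster 4 had a summed member level of 1549 CPM, the highest FGF1 mouse of cluster 6 had Dynlrb2 at 1607 CPM, and the highest vehicle mouse of cluster 6 had Foxj1 at 923 CPM. In all 34 groups were examined, and chance alone sets apart about 1 in 20.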

How the results depend on the processing

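The number of members called lower in Day 1 tanycyte nuclei moved with the processing. DESeq2 called 16, but not Cfap44, Cfap69 and Cfap74 of the edgeR calls (DESeq2 adjusted p = 0.13, 0.094 and 0.14). The batch block gave 10, beside 1.25% of all genes. No filter on low counts gave 28, and leaving out each mouse gave 7 to 22. The lowest, without vehicle mouse 1, stood beside 0.823% of all genes. Where no share of all genes stands beside a count in this section, the count is no result about the members. In ependymal nuclei 6 to 10 were lower with each mouse left out, and 7 by DESeq2. There were 6 without FGF1 mouse 1 and 6 without vehicle mouse 2, beside 5.24% and 5.44% of all genes. Foxj1 there ran from -0.081 to 0.79 with each mouse left out, and was -0.081 without vehicle mouse 1. Dynlrb2 in cluster 10 was 0.15 with the tanycyte-like clusters summed. At Day 5, leaving out each mouse gave 0 to 11 higher members in ependymal nuclei, 0 to 2 lower and 0 to 4 higher in astrocyte nuclei (the higher ends without vehicle mouse 38), 0 to 3 higher in cluster 0, 0 to 1 in cluster 6 and 0 to 1 in cluster 1. With no filter 1 member was lower in Day 5 astrocyte nuclei, 2 were higher in cluster 0, 2 were called in the other Day 1 types and 13 in the other whole-cell clusters (3 with the filter). These fits tested more members, and without the share over all genes the rise in calls cannot be weighed. DESeq2 called 1 in cluster 6, 1 in the other Day 1 types and 4 higher in cluster 2 (2 by edgeR). The batch block gave 1 higher in cluster 6 and 1 in cluster 1, and the limit on mitochondrial and ribosomal UMIs 1 higher in cluster 0. Summing the astrocyte-like clusters gave 1 lower and 8 higher, for cluster 1 as for cluster 4, beside 6.06% and 6.55% of all genes. With no filter the members whose effect differed were 14 between days in tanycyte, 26 in ependymal and 2 in astrocyte nuclei, and 5 between ependymal and tanycyte nuclei. The causes were not tested.

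Leaving out each mouse left a sole vehicle mouse in some Day 5 nuclear fits, which was then assumed to vary like the FGF1 mice. Replicate numbers of Day 1 do not pair the mice: same-numbered mice correlated at -0.01, -0.21 and 0.16 in tanycyte and -0.05, -0.14 and -0.08 in ependymal nuclei, and the replicate block gave 17 and 8 lower members. The Day 5 arms share no replicate number, so the batch, which holds 1 mouse of each arm, was the block there. That fit was not run for Day 5 tanycyte and ependymal nuclei. Values given for a gene with under 10 UMIs in an arm are limited by depth.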

Other observations

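Other genes of motile cilia, a list of 108 that are not members, were described beside them. At Day 1 in tanycyte nuclei 30 of these were tested, 19 fell and none rose, with a median log2 fold change of -2.18, beside 3.76% of all genes tested that fell and 5.38% that rose. Among those called were the adenylate kinases Ak9 (-4.05) and Ak7 (-3.72), which supply nucleotides in axonemes, and Lrriq1 (-3.01). In Day 1 ependymal nuclei 8 of 49 fell and none rose (median -0.55), beside 8.86% and 10.2% of all genes, among them Ttll3 (-2.11), a tubulin glycylase gene, Zbbx (-1.40) and the dynein light chain gene Dnal1 (-1.37). In Day 1 astrocyte nuclei Ttll3 (-4.08) was the 1 of 15 that fell, beside 0.165% of all genes. In whole cells the ependymal-like cluster had 3 of 102 higher and 1 lower, among them Dnajb13 (0.82), Mlf1 (0.60) and Ak8 (-0.83), beside 0.535% of all genes higher and 0.743% lower. Cluster 0 had 2 of 88 higher, a share near the 2.64% of all genes there. In cluster 2, with oligodendrocyte markers, 4 of 22 were higher (median 0.59), beside 0.557% of all genes. With the oligodendrocyte clusters 2, 11 and 12 summed, 0 of 28 were higher and 0 lower (median 0.16), beside 1.06% and 1.07%. In cluster 3, with endothelial markers, 1 of 10 was higher, beside 0.363%. Cluster 7 had 1 of 44 higher, beside 0.968%. With the astrocyte-like clusters 1 and 4 summed 8 of 49 were higher and 1 lower, beside 6.55% and 6.06%.

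Genes of the primary cilium and its trafficking, a list of 63, were described in the same way. In tanycyte nuclei 1 of 19 fell, Wdr35 (-1.88), a subunit of the retrograde transport complex, with a median of -0.65, a share near the 3.76% of all genes that fell. In ependymal nuclei the 10 that were tested had a median of -0.29 and no adjusted p below 0.05 (edgeR). In cluster 0 of the whole cells Gli3 fell (-0.88), a transcription factor that acts in hedgehog signalling through the primary cilium, and Cep290 (0.59), of the transition zone, and Dync2li1 (0.47), of the retrograde motor, rose, 3 of 55 tested, which is near the 2.64% of all genes in each direction.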
